A study of Mus musculus with 8 samples.

Results

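Focal adhesion linker proteins are the cytoplasmic proteins that couple integrins to the actin cytoskeleton, and 10 of their genes were followed here among the 53465 genes of the count table: *Fermt1*, *Fermt2*, *Tln1*, *Ilk*, *Lims1*, *Parva*, *Vcl*, *Pxn*, *Zyx* and *Pdlim7*. The family was chosen by gene name and selected on its CPM (counts scaled to a common library size) in these same libraries, with results of these data already known. Every CPM value, fold change and adjusted p given for a member is therefore a description of these libraries and supports nothing beyond them. All 10 genes were found once in the table and all 10 passed the filter on low counts, which kept 14301 genes, and each stayed in without regard to how it moved.

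Integrins are transmembrane receptors for collagen, fibronectin and laminin that hold little force until talin and a kindlin bind their cytoplasmic tails. Talin and vinculin then tie the receptors to actin filaments, and PINCH and parvin form a second bridge around integrin-linked kinase. Paxillin is the scaffold on which adhesion kinases gather, and zyxin and other LIM-domain proteins join as tension rises and the adhesion matures. In carcinoma cells, transforming growth factor β (TGFβ) is well known for remodeling actin and adhesions during epithelial-mesenchymal transition, and Smad4 is the shared partner of the receptor-activated Smads in that pathway.

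RNA was sequenced from B73 and B87, a pair of mouse pancreatic ductal adenocarcinoma (PDAC) cell lines, each derived from 1 primary pancreatic tumor of a KC-shSmad4 animal. All cells carried a doxycycline (Dox)-inducible short hairpin RNA against *Smad4*, so the Smad4-on controls carried it too. With Dox the cells were Smad4 off, and after 5 days without it they were Smad4 on, and either kind was grown on collagen-coated plates and given 100 pM TGFβ1 or 2.5 µM SB505124, which blocks the TGFβ type I receptor kinase, for 24 h. The 4 groups (SB505124 Smad4 off, SB505124 Smad4 on, TGFβ1 Smad4 off, TGFβ1 Smad4 on) held 1 library of each line, so n = 2 in every group and the line pairs the libraries. No group was untreated, so each TGFβ1 change below is TGFβ1 against SB505124. A rise from TGFβ1 and a fall from SB505124 cannot be told apart. Ages of the animals were not given in the sources used here. A fall or rise in a bulk library can come from fewer cells or from less RNA per cell, and these cannot be told apart.

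Libraries held 18389235 to 23440550 counts. *Smad4*, the targeted gene, stood at 33.7 to 35.5 CPM in the 4 Smad4-off libraries and at 97.3 to 117 CPM in the 4 Smad4-on libraries, so every label matched its knockdown. The epithelial marker list summed to 1172 to 6178 CPM, although *Epcam* reached no more than 2.1 CPM and *Cldn7* no more than 0.756 CPM. The immune markers *Cd3e* and *Adgre1* had 0 counts in all 8 libraries.

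The stretches below, of *Fermt2*, *Vcl* and *Zyx*, were read from RefSeq promoter entries (GRCm38.p6). They are shown because each holds a marked word, and not because of how the gene moved. Entries were present for 8 of the 10 members, 11 entries in all, and the 250 bases before each start were searched on both strands. Capitals mark a CArG box, the word recognised by serum response factor (SRF), in *Vcl* and *Fermt2*, and an AP-1 word, TGANTCA, in *Zyx*.
Fermt2: tccttcatttCCATAAAAGGgcagcgctcc
Vcl: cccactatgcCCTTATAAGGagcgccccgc
Zyx: gtgcggacagTGAGTCAgttctccagc
The *Fermt2* stretch is chr14:45530250-45530279 on the minus strand, with its CArG box beginning 204 bases before the RefSeq start. That of *Vcl* is chr14:20929161-20929190 on the plus strand, 227 bases before the start, and both lie outside the gene as GENCODE M21 draws it. That of *Zyx* is chr6:42349697-42349723 on the plus strand, 121 bases before the RefSeq start, where GENCODE M21 places an exon because it begins the gene upstream. Of all 32851 promoter entries, 1.47% held a CArG box and 6.75% held the AP-1 word in the same 250 bases. The Smad palindrome GTCTAGAC, present in 0.167% of all entries, was found before no member's start, and the short word CAGAC, present in 42.2%, was found in entries of *Fermt1*, *Tln1*, *Zyx* and *Lims1*. The other words searched were GGGCGG (32.7% of all entries), GGAATG (12.6%) and CAGCTG (13.0%). GGGCGG was found in *Fermt1*, *Zyx*, *Ilk*, *Lims1*, *Pdlim7*, *Vcl* and *Fermt2*, GGAATG in *Vcl* and CAGCTG in *Fermt1*. No word overlapped another capitalised one in these stretches, and a match describes letters, not a bound site.

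Across the family and at the threshold used, most members were higher under TGFβ1 than under SB505124 in Smad4-on cells and fewer in Smad4-off cells. At that threshold Smad4 itself moved members under TGFβ1 but none under SB505124. A gene passed when its adjusted p from edgeR's quasi-likelihood test over 14301 genes was under 0.05, with the line in the model. In Smad4-on cells, 9 of 10 members passed as higher under TGFβ1, where 15.6% of all tested genes passed as higher and 17.6% as lower, and no member passed as lower. In Smad4-off cells, 3 of 10 passed as higher (*Fermt2*, *Zyx* and *Pdlim7*) against 6.96% of all genes, and none passed as lower against 6.24%. Smad4 on against off under TGFβ1 gave 4 of 10 higher (*Fermt2*, *Zyx*, *Pdlim7* and *Tln1*) against 3.52% of all genes, and none lower against 3.28%. The same comparison under SB505124 gave 0 of 10 in edgeR, with 0.972% of all genes higher and 0.622% lower, 1 member (*Pdlim7*) at an unadjusted p under 0.05, and 0 of 10 in DESeq2 as well. Passing under one treatment and not the other is not a difference between them, and the test of that difference passed for 1 member, *Fermt2*.

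Median log2 fold changes of the 10 members were 1.16 for TGFβ1 in Smad4-on cells, 0.65 for TGFβ1 in Smad4-off cells, 0.37 for Smad4 under TGFβ1 and 0.08 for Smad4 under SB505124. Over all tested genes the same medians lay between -0.02 and 0.00. Changes over 2-fold were passed by 5 members for TGFβ1 in Smad4-on cells (5.62% of all genes higher), by 2 for TGFβ1 in Smad4-off cells (3.11%) and by 2 for Smad4 under TGFβ1 (1.31%). The comparisons share libraries with one another, so their counts are set side by side only.

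**Figure D1:**
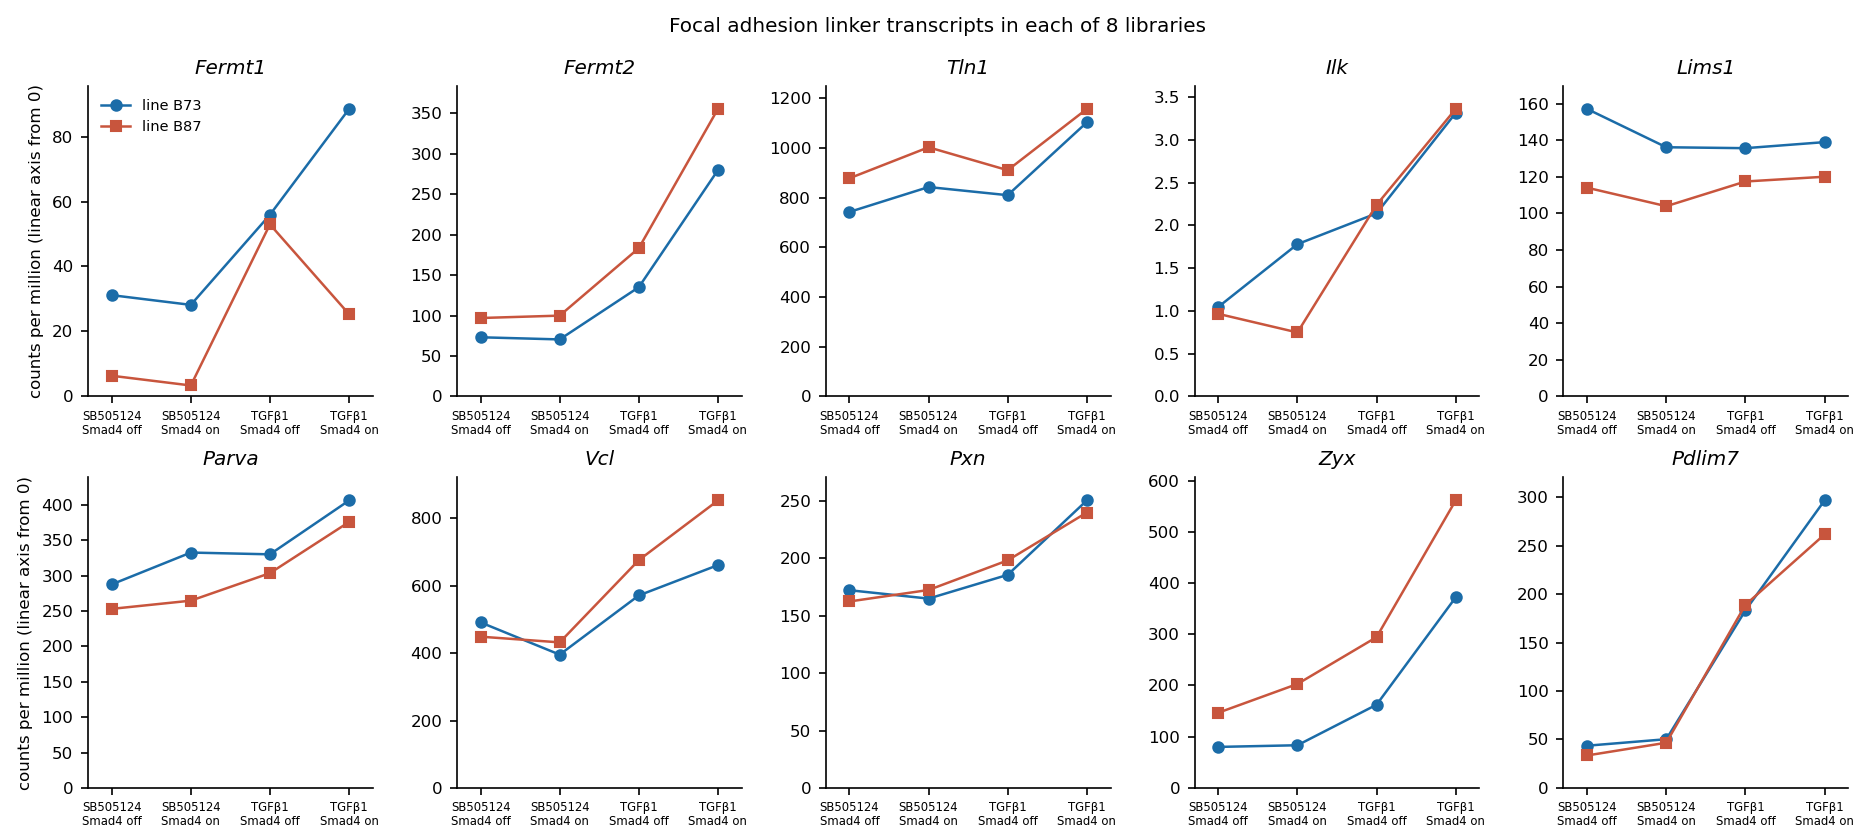
CPM (linear axes from 0) of the 10 members in each of the 8 libraries, by treatment and Smad4 state, with line B73 as blue circles and line B87 as red squares joined by lines within a line. *Fermt2*, *Zyx* and *Pdlim7* climb from the SB505124 libraries to TGFβ1 with Smad4 on in both lines, *Lims1* stays between 104 and 157 CPM, and *Fermt1* follows a different course in each line.

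**Figure D2:**
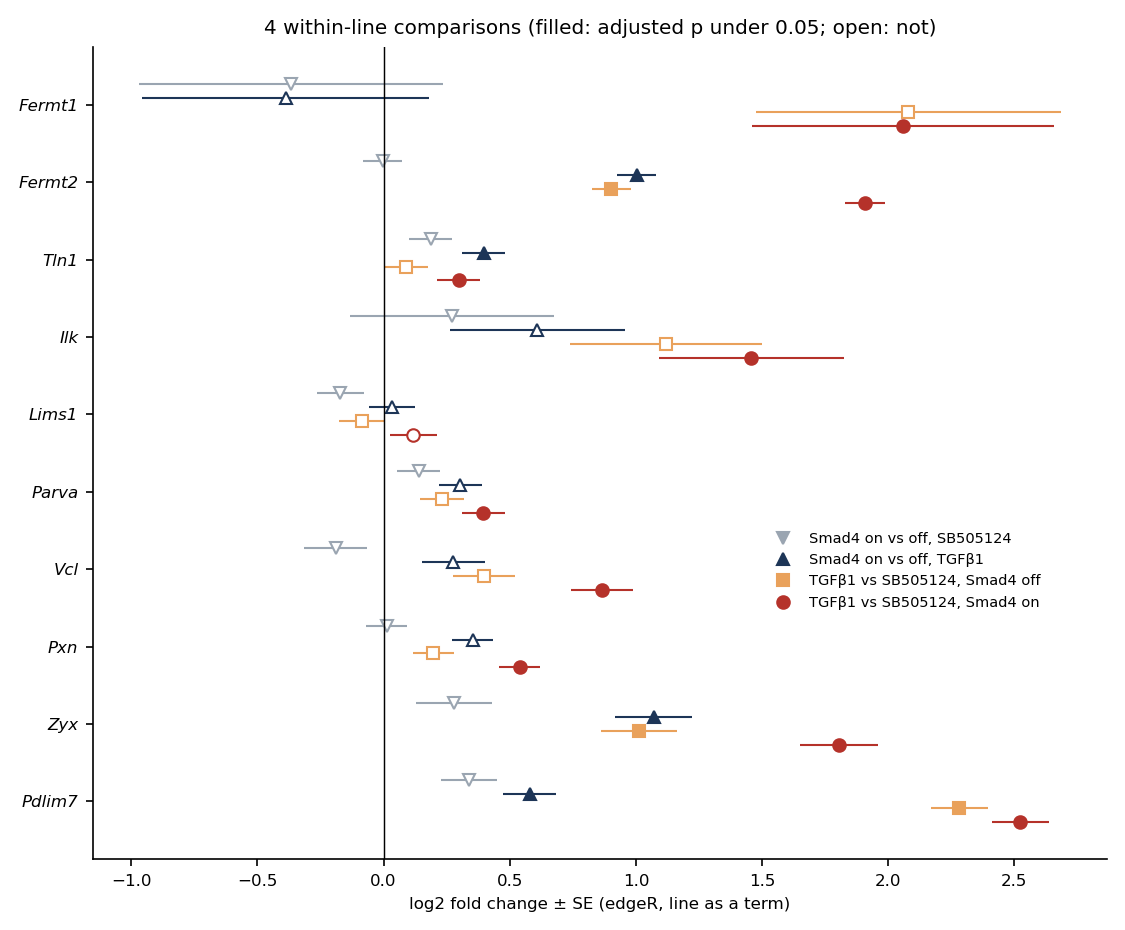
Log2 fold changes ± SE from edgeR for each member (rows) in 4 comparisons, marked by shape and color, where filled symbols have an adjusted p under 0.05. Each of the 4 groups holds 2 libraries, and 9 of the 10 members are filled for TGFβ1 against SB505124 in Smad4-on cells.

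Kindlin-2, encoded by *Fermt2* (chr14:45458795-45530118), is the kindlin of mesenchymal and most adherent cells, and binds the β integrin tail beside talin. In B73 it measured 73.1 CPM under SB505124 with Smad4 off, 70.5 with Smad4 on, 135 under TGFβ1 with Smad4 off and 280 under TGFβ1 with Smad4 on. In B87 the same libraries gave 96.9, 99.9, 183 and 355 CPM. Both lines thus had 3 steps, with the pair of SB505124 libraries lowest and TGFβ1 with Smad4 on highest, and neither TGFβ1 group overlapped the other or the SB505124 groups. TGFβ1 moved *Fermt2* by 0.90 ± 0.08 (SE, log2) in Smad4-off cells and by 1.91 ± 0.08 in Smad4-on cells, and Smad4 moved it by 1.00 ± 0.08 under TGFβ1 (adjusted p = 0.0014, edgeR) and by 0.00 ± 0.08 under SB505124.

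The difference between those last Smad4 effects, the Smad4-by-treatment interaction, was 1.01 ± 0.11 log2 for *Fermt2* (adjusted p = 0.0380, edgeR), with 1.10 in B73 and 0.911 in B87. It was the single member to pass that test, which 0.0559% of all genes passed as higher and 0.140% as lower. Leaving out any 1 of the 8 libraries ended that call, with an adjusted p of 0.0657 to 0.201 (edgeR) with the difference still at 0.954 to 1.06 log2. Without the line as a replicate block its adjusted p was 0.9999 (edgeR) at a difference of 0.993. Of the other members, *Zyx* had the next largest interaction at 0.79 ± 0.21 (adjusted p = 0.259, edgeR). The *Zyx* interaction did pass in DESeq2 with the line (adjusted p = 0.0323, DESeq2) and with no filter on low counts (adjusted p = 0.0112, edgeR).

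Kindlin-1, encoded by *Fermt1* (chr2:132904389-132945906), is the kindlin of epithelia, and its loss in people causes the skin fragility of Kindler syndrome. In B73 it measured 31.2 CPM under SB505124 with Smad4 off, 28.2 with Smad4 on, 55.9 under TGFβ1 with Smad4 off and 88.5 under TGFβ1 with Smad4 on. In B87 the values were 6.37, 3.37, 53.0 and 25.3 CPM, resting on 145, 81, 1064 and 497 counts. The lines lay close together only in TGFβ1 with Smad4 off, and under TGFβ1 the 2 Smad4 groups overlapped because restoring Smad4 went with a rise of 0.66 log2 in B73 and a fall of 1.06 log2 in B87.

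The size of the TGFβ1 response of *Fermt1* differed between single libraries of the lines. In Smad4-off cells it was 1.79-fold higher under TGFβ1 in B73 and 8.21-fold higher in B87, and in Smad4-on cells 3.13-fold and 7.34-fold. The fitted change in Smad4-on cells was 2.06 ± 0.60 log2 (adjusted p = 0.0368, edgeR), although the groups overlapped, and in Smad4-off cells 2.08 ± 0.61 (adjusted p = 0.0682, edgeR) with groups that did not overlap. The test of whether the lines differed in their TGFβ1 response gave 1.72 ± 0.61 log2 for *Fermt1* (adjusted p = 0.578, edgeR), and that for the Smad4 response -1.27 ± 0.71 (adjusted p = 0.649, edgeR). With no filter on low counts both passed, at adjusted p = 0.00419 and 3.52e-08 (edgeR), among the 27770 genes then tested. No member passed either line test with the filter, against 0% of all genes in either direction for the TGFβ1 response and 0.203% in each direction for the Smad4 response.

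Per kilobase of exon, the ratio of *Fermt2* to *Fermt1* told the lines apart. In B73 it was 2.58, 2.75, 2.65 and 3.47 across SB505124 Smad4 off, SB505124 Smad4 on, TGFβ1 Smad4 off and TGFβ1 Smad4 on. In B87 it was 16.7, 32.6, 3.80 and 15.4 in the same order. Kindlin-2 transcripts exceeded kindlin-1 transcripts in all 8 libraries, and the ratio changed over a wider range in B87 than in B73. Line B87 also had lower levels of the epithelial markers, whose sum was 1172 to 2071 CPM against 3870 to 6178 CPM in B73, with 6 of 7 tested markers passing as lower, and their part in the *Fermt1* difference was not tested.

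Talin-1, encoded by *Tln1* (chr4:43531519-43562691), opens integrins by binding the β tail and carries force to actin. It measured 742, 842, 809 and 1102 CPM in B73 and 877, 1002, 910 and 1156 CPM in B87, in the order SB505124 Smad4 off, SB505124 Smad4 on, TGFβ1 Smad4 off and TGFβ1 Smad4 on. The TGFβ1 Smad4-on libraries were highest in both lines and stood clear of the other groups, while TGFβ1 with Smad4 off overlapped SB505124 with Smad4 off. Its changes were small, at 0.40 ± 0.09 log2 for Smad4 under TGFβ1 (adjusted p = 0.0423, edgeR), 0.30 ± 0.09 for TGFβ1 in Smad4-on cells (adjusted p = 0.0357, edgeR) and 0.09 ± 0.09 for TGFβ1 in Smad4-off cells (adjusted p = 0.551, edgeR). The first 2 calls ended when any 1 of the 6 libraries other than SB505124 Smad4 off was left out, at adjusted p of 0.0608 to 0.265 and 0.0537 to 0.198 (edgeR), and without the line block, at 0.298 and 0.187. The call for TGFβ1 in Smad4-on cells also ended with only the 4 libraries compared (adjusted p = 0.0888, edgeR).

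Integrin-linked kinase, PINCH-1 and α-parvin form the trimeric bridge, and *Ilk* is the least certain value of the family. *Lims1* (chr10:58323466-58424691), encoding PINCH-1, an adaptor of LIM domains, measured 157, 136, 136 and 139 CPM in B73 and 114, 104, 117 and 120 CPM in B87, in the same order of groups. The spread between lines was as wide as that between conditions, all 4 comparisons had overlapping groups, and none passed, with changes from -0.17 ± 0.09 (Smad4 under SB505124) to 0.12 ± 0.09 log2 (TGFβ1 in Smad4-on cells). *Parva* (chr7:112427505-112591692), encoding the actin-binding α-parvin, measured 288, 333, 330 and 406 CPM in B73 and 253, 265, 304 and 376 CPM in B87. It was highest in TGFβ1 with Smad4 on in both lines, apart from all other groups, and passed for TGFβ1 in Smad4-on cells at 0.40 ± 0.09 log2 (adjusted p = 0.0131, edgeR), with 0.30 ± 0.09 for Smad4 under TGFβ1 (adjusted p = 0.0862, edgeR).

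*Ilk* (chr7:105736592-105742925), encoding the pseudokinase at the center of that bridge, had 21, 33, 50 and 65 counts in B73 and 22, 18, 45 and 66 counts in B87, or 1.05, 1.78, 2.14 and 3.32 CPM and 0.966, 0.748, 2.24 and 3.36 CPM. The 4 TGFβ1 libraries exceeded the 4 SB505124 libraries, and TGFβ1 with Smad4 on was highest in both lines. TGFβ1 changed it by 1.46 ± 0.37 log2 in Smad4-on cells (adjusted p = 0.0227, edgeR) and by 1.12 ± 0.38 in Smad4-off cells (adjusted p = 0.105, edgeR). These counts are uncertain because 89.7% of its 2744 exonic bases lie under exons of the opposite-strand genes *Taf10* and *Rrp8*, and the strand setting of the counting is not given in the sources used here. *Taf10* itself had 1472 to 2036 counts and *Rrp8* 1079 to 1651, against at most 66 for *Ilk*.

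Vinculin, encoded by *Vcl* (chr14:20929398-21033676), is recruited to stretched talin and reinforces the tie to actin. It measured 491, 396, 571 and 661 CPM in B73 and 449, 432, 676 and 853 CPM in B87, in the order SB505124 Smad4 off, SB505124 Smad4 on, TGFβ1 Smad4 off and TGFβ1 Smad4 on. All TGFβ1 libraries were above all SB505124 libraries, and under SB505124 the Smad4-on libraries were the lower ones. TGFβ1 moved it by 0.87 ± 0.12 log2 in Smad4-on cells (adjusted p = 0.00258, edgeR) and 0.40 ± 0.12 in Smad4-off cells (adjusted p = 0.0819, edgeR), and Smad4 by 0.28 ± 0.12 under TGFβ1 (adjusted p = 0.233, edgeR). Exons of opposite-strand *Ap3m1* cover 25.5% of its exonic bases, and *Ap3m1* had 1348 to 1687 counts, well under those of *Vcl*.

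Paxillin, encoded by *Pxn* (chr5:115506676-115555987), is the scaffold that holds focal adhesion kinase and vinculin together. It measured 172, 165, 186 and 251 CPM in B73 and 163, 173, 198 and 240 CPM in B87. The lines lay close together, the SB505124 groups overlapped, and TGFβ1 with Smad4 on stood above all other libraries. It passed for TGFβ1 in Smad4-on cells (0.54 ± 0.08 log2, adjusted p = 0.00328, edgeR), and for Smad4 under TGFβ1 it fell just outside the threshold at 0.35 ± 0.08 (adjusted p = 0.0511, edgeR). *Tln1*, at an adjusted p of 0.0423 (edgeR), was the member just inside it. In DESeq2 with the line, *Pxn* did pass for Smad4 under TGFβ1 (adjusted p = 0.00366, DESeq2).

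Zyxin, encoded by *Zyx* (chr6:42349630-42360213), is a LIM protein that binds α-actinin and VASP and moves to actin fibers under strain. It measured 80.0, 83.3, 162 and 372 CPM in B73 and 147, 203, 294 and 561 CPM in B87, again in the order of groups used above. Every condition was higher in B87 than in B73, and within each line TGFβ1 with Smad4 on was highest. TGFβ1 moved it by 1.80 ± 0.15 log2 in Smad4-on cells (adjusted p = 0.00034, edgeR) and by 1.01 ± 0.15 in Smad4-off cells (adjusted p = 0.00768, edgeR). Smad4 under TGFβ1 moved it by 1.07 ± 0.15 (adjusted p = 0.0107, edgeR), and by 0.28 ± 0.15 under SB505124 (adjusted p = 0.513, edgeR).

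*Pdlim7* (chr13:55495795-55513676) encodes Enigma, a PDZ and LIM protein that docks on tropomyosin-bound actin. It measured 43.6, 50.3, 183 and 297 CPM in B73 and 33.5, 46.7, 189 and 262 CPM in B87. No pair of groups overlapped, and the order SB505124 Smad4 off, SB505124 Smad4 on, TGFβ1 Smad4 off, TGFβ1 Smad4 on held in each line. Its TGFβ1 change in Smad4-off cells was 2.28 ± 0.11 log2 (adjusted p = 0.000231, edgeR), close to the 2.52 ± 0.11 of Smad4-on cells (adjusted p = 4.83e-05, edgeR). Smad4 added 0.58 ± 0.11 under TGFβ1 (adjusted p = 0.0252, edgeR) and 0.34 ± 0.11 under SB505124 (adjusted p = 0.262, edgeR), and the interaction was 0.24 ± 0.15 (adjusted p = 0.654, edgeR).

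Groups that did not overlap were counted beside the test. Under TGFβ1, 7 members were higher in both Smad4-on libraries than in either Smad4-off library, where 22.4% of all genes did the same. For TGFβ1 against SB505124, 8 members were separate and higher in Smad4-on cells (28.5% of all genes), 1 fewer than passed, and 8 in Smad4-off cells (23.5%). Under SB505124, *Pdlim7* was separate and higher with Smad4 on (16.1% of all genes) and *Vcl* separate and lower (15.3%), without passing. No member was separate and lower in the other comparisons, against 22.5% of all genes for Smad4 under TGFβ1, 29.8% for TGFβ1 in Smad4-on cells and 25.9% in Smad4-off cells.

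These calls rest on pairing the libraries by line. Without the line as a replicate block, 0 of 10 members passed for Smad4 under TGFβ1 in edgeR (43 genes passed in all, and 4 members had an unadjusted p under 0.05), with *Fermt2* at an adjusted p of 0.204 and *Zyx* at 0.486. For TGFβ1 in Smad4-on cells 4 members passed in the unblocked fit (*Fermt2*, *Vcl*, *Pxn* and *Pdlim7*), and in Smad4-off cells 1 (*Pdlim7*). With the block, Smad4 under TGFβ1 gave 1 member (*Fermt2*) without the B73 TGFβ1 Smad4-off library, without the B73 TGFβ1 Smad4-on library or without the B87 TGFβ1 Smad4-off library, and 2 (*Fermt2* and *Zyx*) without the B87 TGFβ1 Smad4-on library. The *Pdlim7* call for Smad4 under TGFβ1 ended without any 1 of the 4 TGFβ1 libraries, at adjusted p of 0.0622 to 0.224 (edgeR). For TGFβ1 in Smad4-on cells, 5 members passed without the B87 SB505124 Smad4-on library and 5 without the B87 TGFβ1 Smad4-on library, the losses being *Fermt1*, *Tln1*, *Ilk* and *Parva* in either case. The *Fermt1*, *Tln1* and *Ilk* calls also ended without the B73 TGFβ1 Smad4-on library. For TGFβ1 in Smad4-off cells the *Zyx* call ended without the TGFβ1 Smad4-off library of either line, at adjusted p of 0.0504 and 0.0507 (edgeR).

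**Figure D3:**
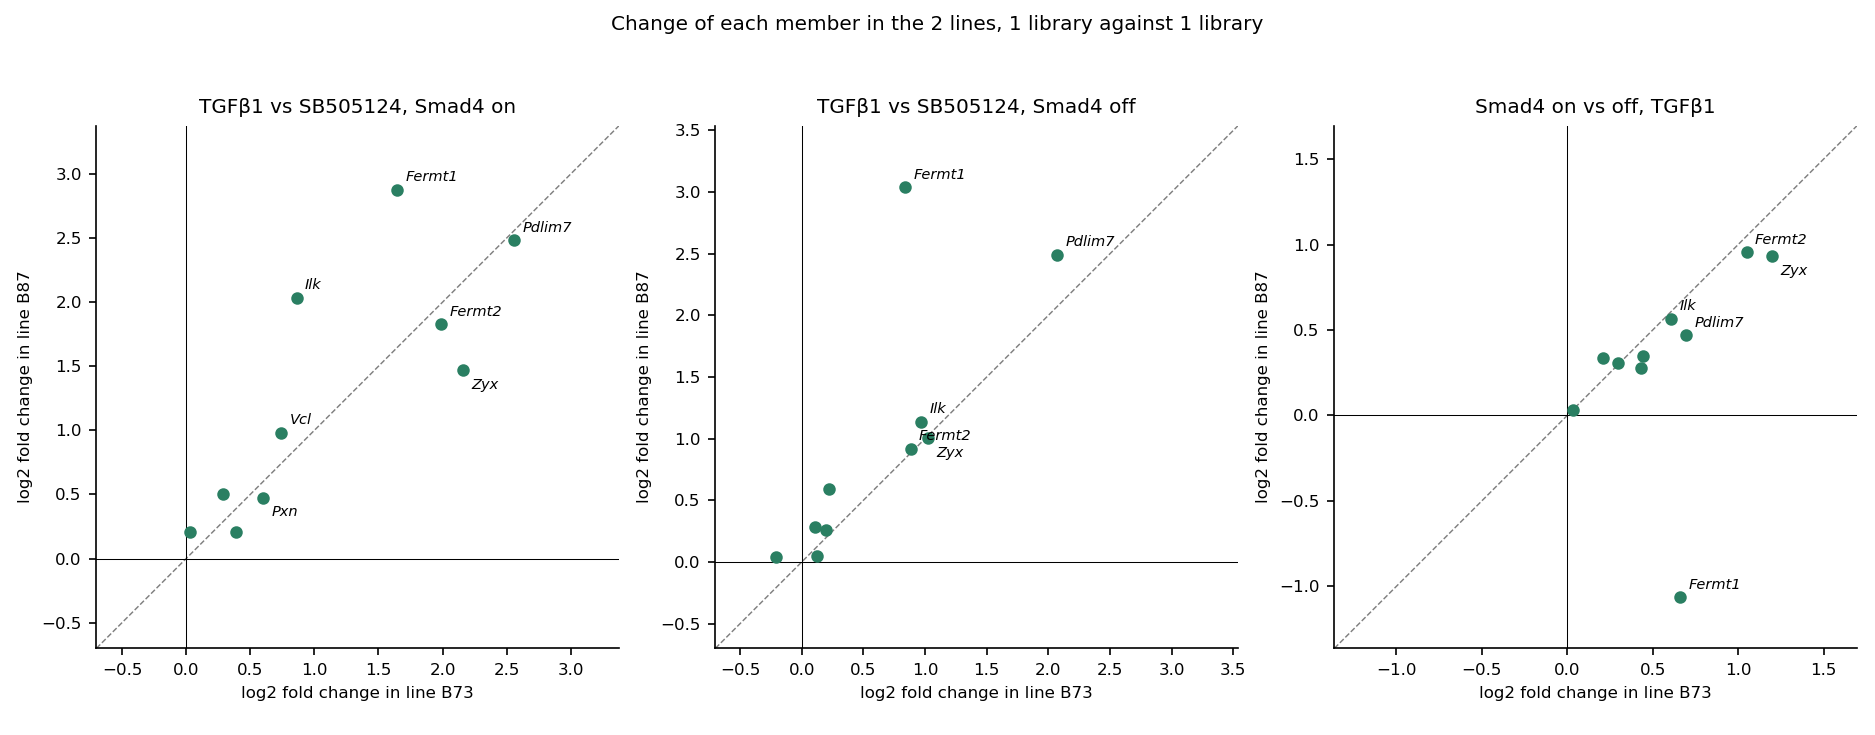
Log2 fold change of each member in line B73 (x axis) and line B87 (y axis), 1 library against 1, for TGFβ1 against SB505124 in Smad4-on and Smad4-off cells and for Smad4 on against off under TGFβ1, with a dashed line at equal change. Most members lie near the dashed line, and *Fermt1* lies off it in every panel, at 0.66 in B73 and -1.06 in B87 for Smad4 under TGFβ1. For TGFβ1 in Smad4-on cells *Ilk* (0.862 in B73, 2.04 in B87) and *Zyx* (2.16 in B73, 1.47 in B87) also lie off it.

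The lines also differed in their standing levels of linkers. Over all conditions *Zyx* was higher in B87 by 0.90 ± 0.11 log2 (adjusted p = 0.00189, edgeR) and *Fermt2* by 0.42 ± 0.05 (adjusted p = 0.00262, edgeR), where 8.92% of all genes passed as higher in B87. *Fermt1* was lower in B87 by -1.71 ± 0.43 (adjusted p = 0.0358, edgeR) and *Lims1* by -0.32 ± 0.07 (adjusted p = 0.0168, edgeR), where 9.68% of all genes passed as lower. Leaving out either line's SB505124 Smad4-off or SB505124 Smad4-on library left 2 members, *Zyx* and *Fermt2*. Since each line came from 1 tumor, a line difference is a difference between those 2 lines.

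Per kilobase of exon, *Tln1* was the most abundant linker transcript with a median of 91.2 CPM per kb over the 8 libraries, then *Vcl* (64.9), *Zyx* (33.9), *Parva* (31.2), *Lims1* (26.1), *Pdlim7* (24.1), *Fermt2* (22.6), *Pxn* (21.9), *Fermt1* (5.21) and *Ilk* (0.715). *Tln1* ran from 75.7 to 118 CPM per kb and *Vcl* from 48.3 to 104, so these neighbors overlapped. The genes from *Zyx* to *Pxn* overlapped one another throughout, since *Zyx* alone ran from 14.9 to 104 CPM per kb. *Fermt1* (0.591 to 15.5) lay under the range of *Pxn* (19.8 to 30.6), and *Ilk* (0.273 to 1.23) overlapped only the low end of *Fermt1*. Under TGFβ1 with Smad4 on, *Zyx* (86.6 ± 24.8 CPM per kb, SD, n = 2) came close to *Vcl* (92.4 ± 16.6). *Fermt2* (61.2 ± 10.3) and *Pdlim7* (57.6 ± 5.12) stayed below *Vcl* there. Under SB505124 with Smad4 off, *Vcl* (57.4 ± 3.66) exceeded *Zyx* (21.0 ± 8.76), *Fermt2* (16.4 ± 3.24) and *Pdlim7* (7.95 ± 1.47).

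Pairs of members were compared by Pearson's r of log2 CPM over the 8 libraries, as a description of points that share lines and treatments. The closest pairs were *Fermt2* with *Zyx* (0.959), *Fermt2* with *Pxn* (0.949) and *Fermt2* with *Vcl* (0.933), and the most opposed were *Tln1* with *Lims1* (-0.477) and *Zyx* with *Lims1* (-0.424). *Fermt1* and *Tln1* had an r of -0.04. Outside the family, the gene of highest r among 11091 compared was *AW209491* for *Fermt2* (0.993), *Armc9* for *Zyx* (0.993), *D3Ertd254e* for *Pdlim7* (0.998), *Tcim* for *Fermt1* (0.973) and *4930453N24Rik* for *Tln1* (0.992). For the rest it was *Zswim4* for *Vcl* (0.989), *Ubap1* for *Pxn* (0.990), *Ostf1* for *Ilk* (0.984), *Cdr2* for *Parva* (0.995) and *Chml* for *Lims1* (0.969).

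Close relatives of the members were read beside them, in a list of paralogs that also held *Rsu1*, a PINCH-binding protein and no paralog. Of the 16 genes listed, 15 were tested, and 7, *Rsu1* among them, passed as higher with Smad4 on under TGFβ1 and none as lower, with a median of 0.54 log2 over the 15. *Tgfb1i1*, encoding the paxillin relative Hic-5, changed by 1.02 ± 0.21, *Lims2* (PINCH-2) by 1.52 ± 0.33, *Pdlim5* by 0.80 ± 0.11, *Lpp* (a zyxin relative) by 0.70 ± 0.12, *Pdlim1* by 0.69 ± 0.10, *Rsu1* by 0.54 ± 0.08 and *Parvb* (β-parvin) by 0.44 ± 0.08. Under SB505124 none of the 15 passed in edgeR, their changes including 0.61 for *Tgfb1i1* and 1.38 for *Lims2*. TGFβ1 in Smad4-on cells gave 7 higher and 2 lower, the latter *Tln2* (-0.74 ± 0.21) and *Pdlim4* (-4.82 ± 0.62, at 0.0510 to 2.79 CPM), and in Smad4-off cells 4 higher and 1 lower.

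Some members and their paralogs had unlike values. *Tln1* was higher under TGFβ1 in Smad4-on cells where *Tln2* was lower. *Lims1* did not pass for Smad4 under TGFβ1 (0.03 ± 0.09) where *Lims2*, at 2.50 to 26.8 CPM, did, though it did not pass for TGFβ1 in Smad4-on cells (0.49 ± 0.32). *Trip6*, the other zyxin relative, had 0.01 ± 0.11 for Smad4 under TGFβ1 where *Zyx* had 1.07, and *Pdlim2* had -1.22 ± 0.34 (adjusted p = 0.0812, edgeR) where *Pdlim7* had 0.58. The blood-cell kindlin *Fermt3* was present at 0.291 to 0.748 CPM.

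The wider focal adhesion machinery was read from lists of its other parts. Among 23 further actin and membrane linkers, 6 passed as higher and 3 as lower for Smad4 under TGFβ1, the largest rise being that of the actin bundler *Palld* (1.57 ± 0.10), and 13 and 4 for TGFβ1 in Smad4-on cells, led by tensin *Tns1* (2.20 ± 0.68) and *Sorbs3* (-1.70 ± 0.40). Among 21 adhesion signaling genes tested, 2 passed as higher and 1 as lower for Smad4 under TGFβ1, led by the kinase *Ptk2b* (0.89 ± 0.09) and *Src* (-0.38 ± 0.08), and 11 and 2 for TGFβ1 in Smad4-on cells. Medians for Smad4 under TGFβ1 were 0.23 for the linkers and 0.14 for the signaling genes, against 0.37 for the members. Higher medians were those of the paralog list (0.54) and of the SRF-linked list read below (0.70).

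Of 18 integrin subunits tested, 2 passed as higher and 3 as lower for Smad4 under TGFβ1, led by the fibronectin receptor subunit *Itga5* (1.92 ± 0.13) and the leukocyte subunit *Itgb2* (-3.47 ± 0.23), with a median of -0.04 log2. TGFβ1 in Smad4-on cells gave 7 higher and 4 lower, led by the collagen receptor subunit *Itga2* (3.20 ± 0.57) and *Itgb7* (-3.76 ± 0.38). Of 12 genes of adhesion turnover and integrin inhibition, 2 passed as higher and 1 as lower for Smad4 under TGFβ1, led by the calpain *Capn2* (1.02 ± 0.09), a protease that cuts talin, and *Kank3* (-1.89 ± 0.22). For Smad4 under TGFβ1, the integrin subunits that passed moved in both directions and the members that passed moved in one. The paralog list was also one-way there (7 higher, 0 lower), while the further actin and membrane linkers were not (6 higher, 3 lower). The members were chosen with results of these data known, so no contrast is drawn from this.

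Since 2 members held a CArG box before the start, 14 tested genes linked to SRF and its cofactors were read beside them. For Smad4 under TGFβ1, 8 of the 14 passed as higher (3.52% of all genes) and none as lower (3.28%), with a median of 0.70 log2. Among the 8 were *Srf* (0.69), *Mkl1* (0.72), *Actb* (0.56) and *Cald1* (0.73), while *Mkl2* did not pass (-0.12 ± 0.09). Under SB505124, Smad4 gave 2 higher (0.972% of all genes) and none lower (0.622%), with a median of 0.35, against 0.08 for the members. For TGFβ1 in Smad4-on cells 11 passed as higher (15.6% of all genes) and *Tpm2* as lower (-1.37, 17.6%), and in Smad4-off cells 9 as higher (6.96%). Of the 2 members with the word, *Fermt2* passed for Smad4 under TGFβ1 and *Vcl* did not (0.28 ± 0.12), and *Zyx*, *Pdlim7* and *Tln1* passed without it in the bases searched.

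**Figure D4:**
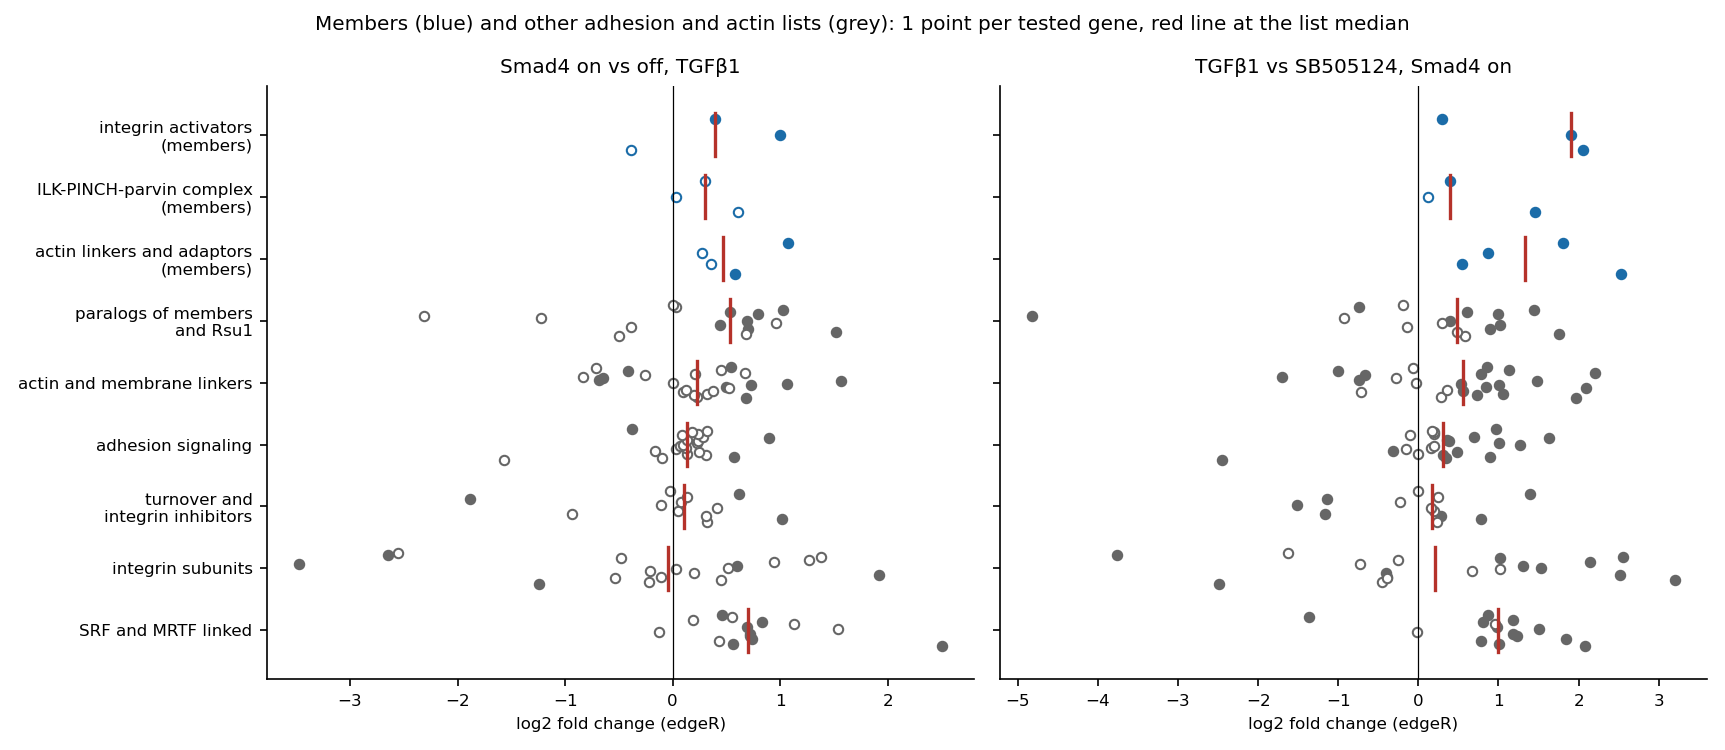
Log2 fold changes (edgeR) for Smad4 on against off under TGFβ1 (left) and TGFβ1 against SB505124 in Smad4-on cells (right), 1 point per tested gene, for the 3 groups of members (blue) and 6 other lists (grey), filled where the adjusted p is under 0.05, with a red line at each list's median. Points for integrin subunits spread to both sides of 0. The members lie mostly to its right, and so do the paralogs with *Rsu1*, with medians of 0.54 (left) and 0.49 (right).

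Markers of other cells were read beside the rise of the linkers under TGFβ1. The fibroblast list summed to 31.7 to 95.6 CPM under SB505124 with Smad4 off and to 208 to 1392 CPM under TGFβ1 with Smad4 on, and 2 of its 10 genes, *Col1a1* and *Acta2*, passed as higher in all 4 comparisons, Smad4 under SB505124 included. Of the defining fibroblast markers *Lum* had 0 counts in all libraries, and *Dcn* and *Thy1* had at most 3 and 1. Others were present, with *Col3a1* at up to 833 counts, *Pdgfrb* 653, *Pdpn* 535, *Pdgfra* 154 and *Col1a2* 59, and none of these passed in any of the 4 comparisons. Between the lines, 5 genes of the list passed as higher in B87 than in B73 (*Col1a1*, *Acta2*, *Pdgfrb*, *Pdpn* and *Pdgfra*). In the other direction, 1 passed as lower, *Col1a2* (-4.03 ± 0.47). The endothelial list summed to 0.756 to 5.36 CPM under SB505124 and to 3.47 to 26.0 CPM under TGFβ1. In it *Cdh5*, at 54 counts or fewer, passed as higher under TGFβ1 in either Smad4 state, *Kdr* passed as higher under TGFβ1 in Smad4-off cells (2.02 ± 0.28) and as lower with Smad4 on under TGFβ1 (-3.35 ± 0.31), and *Pecam1*, *Tek* and *Vwf* had at most 5, 3 and 4 counts. The immune list summed to 1.33 to 6.38 CPM. The part of *Col1a1*, *Acta2*, *Cdh5* and *Kdr* expression in the members' changes was not tested.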

How the data were processed

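The authors prepared stranded poly(A) libraries for 8 samples, read them as 75-bp single ends, trimmed with Trimmomatic 0.36, aligned with STAR 2.5.3a to GRCm38 (mm10) and counted with featureCounts 1.6.3, with FastQC 0.11.5 for quality, per the submitters' notes. The deposited table holds raw counts per gene, 1 column per library. Counts were scaled by TMM and fitted with edgeR 4.0.16 (R 4.3.3, quasi-likelihood, filterByExpr) on group and line over all 8 libraries, with Benjamini-Hochberg adjustment. Each SE was obtained from the log2 change and the root of its F statistic. Per-line changes use log2 CPM with a prior count of 2. Libraries are paired because each line went through all conditions. Deviations of the lines correlated between groups at a median r of 0.758 (0.642 to 0.774). Nothing in the labels names separate cultures within a line, so p-values measure the spread between these libraries. At these depths 3 counts equal 0.125 to 0.162 CPM, counting error only. DESeq2 1.42.0 and the other alternatives are given in the closing section. Overlaps were read from GENCODE M21. The members and all lists were chosen with earlier results of these data known. Other genes were named by rule: every paralog may be named, and otherwise the largest passed rise and fall of a list with mean log2 CPM of at least 1. The SRF-linked examples were picked from their list after values were seen. The fits were tested on simulated data. Some items of the design and of the lists are not reported here.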

Additional observations from a re-analysis of the deposited data

Results flagged for a closer look

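The Smad4 effect on *Fermt2* differed between treatments, by 1.01 log2 (TGFβ1 minus SB505124; adjusted p = 0.0380, edgeR, interaction test), and in the same direction in both lines. The other results listed here had opposite signs in the 2 lines, each from 1 library against 1, and the difference between lines was not tested within the single treatment or Smad4 state. *Fermt1* for Smad4 under TGFβ1 stood at 0.66 log2 in B73 and -1.06 in B87. For Smad4 under SB505124, *Ilk* stood at 0.72 in B73 and -0.33 in B87 on 18 to 33 counts, *Pxn* at -0.062 and 0.086, and *Fermt2* at -0.053 and 0.043. *Lims1* for TGFβ1 in Smad4-off cells stood at -0.212 in B73 and 0.041 in B87. Groups of 2 libraries allow no test for an outlying library.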

How the results depend on the processing

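Directions of all members that passed held under each alternative run. Members passing for Smad4 under TGFβ1 numbered 4, against 0 in edgeR with no replicate block, 2 when over 2-fold was also required, and 1 to 4 with 1 library left out. For TGFβ1 in Smad4-on cells they numbered 9, against 4 with no replicate block, 5 over 2-fold, and 5 to 9 with 1 library left out. For TGFβ1 in Smad4-off cells they numbered 3, against 1 with no replicate block, 5 in DESeq2 with the line, 6 with no filter on low counts, and 6 with only the 4 libraries compared. For the interaction, 1 became 0 with no replicate block, 2 in DESeq2, 2 with no filter, and 0 with any 1 library left out. The line difference gave 4, against 1 over 2-fold and 2 to 4 with 1 library left out. With no filter the line-by-TGFβ1 and line-by-Smad4 tests each gave 1, *Fermt1*. Over all genes, 973 passed for Smad4 under TGFβ1 against 43 with no block, 1477 in DESeq2 and 1887 with no filter, and 228 for Smad4 under SB505124 against 2, 491 and 792, 136 at 10 counts or more in every library and 75 with only the 4 libraries. For TGFβ1, 4751 passed in Smad4-on cells against 2180 with no block, and 1888 in Smad4-off cells against 270. The interaction gave 28, against 0 with no block, 270 in DESeq2 and 440 with no filter. The line-by-TGFβ1 test gave 0, against 55 in DESeq2 and 156 with no filter, and the line-by-Smad4 test 58, against 158 and 719. With 1 library left out the counts were 171 to 973 and 47 to 231 for Smad4 under TGFβ1 and SB505124, 2647 to 4865 and 472 to 1943 for TGFβ1 in Smad4-on and Smad4-off cells, 0 to 14 for the interaction, 1644 to 2200 against 2660 for the line, and 56 to 166 for line by Smad4. Dropping the line from the edgeR fit ended 12 member calls and added none. Other alternatives added calls for Smad4 under TGFβ1. In DESeq2 with the line, *Pxn* (adjusted p = 0.00366, DESeq2) and *Parva* (0.0256) passed. In edgeR, *Pxn* passed with DESeq2 size factors (adjusted p = 0.0467), with no filter (0.0320) and with only the 4 libraries compared (0.0470). The cause of these changes was not tested.

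Signs changed only for members that had not passed. For Smad4 under TGFβ1, *Fermt1* was 0.0637 with no replicate block and -1.31 to 0.92 with 1 library left out, and *Lims1* -0.0378 to 0.103. For Smad4 under SB505124, *Fermt2* was 0.00275 with no replicate block, 0.0015 in DESeq2, 0.000772 with DESeq2 size factors and 0.00548 with no filter. With 1 library or line left out it was -0.053 to 0.043, *Fermt1* -1.51 to 0.23, *Vcl* -0.37 to 0.00512, *Pxn* -0.062 to 0.086 and *Ilk* -0.43 to 0.83. *Lims1* for TGFβ1 in Smad4-off cells was -0.212 to 0.041. For the interaction, *Fermt1* was 0.32 with no replicate block and -0.89 to 1.34 with 1 library left out, and *Ilk* -0.23 to 1.03. A lone library left in a group was assumed to vary like the others, and depth limits only *Ilk* and *Fermt1* in B87.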
